A study of Saccharomyces cerevisiae with 10 samples.

Results

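The 137 genes described here encode the proteins of the cytosolic ribosome of budding yeast. They were chosen by standard name: RPL or RPS with a number and an optional A or B, and the stalk genes RPP0, RPP1A, RPP1B, RPP2A and RPP2B. The count table of the rich-medium experiment has 6608 features, and all 137 genes are among them. Of these, 81 belong to the large subunit and 56 to the small subunit. In 19 cases the protein has 1 gene (11 large, 8 small), and the other 118 genes form 59 A and B pairs (35 large, 24 small). All strains were of the 74D694 background and were treated with cycloheximide, a drug that halts elongating ribosomes. In YPD, a rich medium, cells with the prion [PSI+] were compared with cells without it, [psi-]: each strain gave 2 libraries of ribosome footprints and 1 of mRNA. In YNB, a synthetic medium with 2% glucose, 2 footprint libraries came from [PSI+] cells and 2 from [PSI+] cells overexpressing SUP35-Cter. Cells were taken at an OD600 of 0.6 to 0.8 at 30 °C. [PSI+] is an aggregated, heritable form of the termination factor Sup35, and SUP35-Cter is its C-terminal part, which terminates translation and does not join the aggregate.

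The ribosome is built from one copy of nearly every ribosomal protein, with rRNA at its core, so a growing yeast cell makes these proteins in matched amounts. Their genes are transcribed together under Rap1, Fhl1, Ifh1 and Sfp1, which respond to nutrients through the TOR and protein kinase A pathways. Most of the genes exist as a pair left from an ancient genome duplication, and the coding sequences of a pair are often nearly identical. A short read from such a stretch cannot be assigned to 1 copy. For that reason the single-copy genes are described first, then the pairs as sums of both copies, and the copies last. RPS31 and the RPL40 pair encode fusions to ubiquitin. RPS31, although its name carries no A or B, and the sum of the RPL40 copies therefore also share sequence with other genes.

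Reads assigned to genes numbered 2497170 and 3257673 in the [PSI+] footprint libraries and 3461402 and 3579039 in the [psi-] ones. For mRNA the totals were 5494957 in [PSI+] and 2480012 in [psi-]. Ribosomal protein genes took 23.5% and 19.2% of footprint reads in [PSI+] and 22.6% and 22.7% in [psi-]. In mRNA they took 17.3% in [PSI+] and 5.59% in [psi-]. All 137 passed the filter on low counts. The 4 untranslated RNAs SCR1, RPR1, NME1 and TLC1, a sign of RNA that is not footprints, took 1.12% and 1.34% of [PSI+] footprint reads against 0.409% and 0.406% in [psi-]. The part of that difference in the results was not tested. Counting intervals below cover counting error only. Lower RNA per cell and a lower share among the other RNAs cannot be told apart in such libraries.

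Footprints of the single-copy genes moved both ways between the strains, mostly by less than 2-fold, while their mRNA was higher in the [PSI+] library for each of the 19. The edgeR quasi-likelihood test with Benjamini-Hochberg adjustment over all 5135 genes tested called 3 of the 19 higher in [PSI+] footprints (RPS13, RPS3 and RPL39) and 3 lower (RPL29, RPL28 and RPL25). Over all 137 genes it called 14 higher, against 15.7% of all genes tested, and 16 lower, against 18.9% (34.6% in either direction). Both [PSI+] values lay above both [psi-] values for 32 of the 137, against 36.4% of all genes, and below them for 46, against 36.4%. Among the 19 single-copy genes the same held for 8 above and 9 below. The median footprint log2 fold change of the single-copy genes, [PSI+] over [psi-], was -0.13, and that of all genes tested was 0.02. Of the 11 large-subunit genes 1 rose and 3 fell, and of the 8 small-subunit genes 2 rose and 0 fell. The size of the change ranged from -1.10 to 0.81, so 1 of the 19 genes moved by more than 2-fold.

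The 3 single-copy genes that fell all encode proteins of the large subunit. RPL28 encodes uL15, a protein of the large-subunit core known for cycloheximide resistance when mutated. Its footprint level was 7690.4 and 6742 CPM (counts scaled to a common library size by TMM) in the [PSI+] libraries and 14235 and 14373 CPM in the [psi-] ones. Both [PSI+] values lay below both [psi-] values, and the log2 fold change was -0.99 ± 0.15 (SE; edgeR adjusted p = 0.00665). RPL29, one of the shortest ribosomal proteins, stood at 896 and 862 CPM in [PSI+] and 1886 and 1881 CPM in [psi-]. Its groups were also apart, with a log2 fold change of -1.10 ± 0.13 (SE; edgeR adjusted p = 0.00325). RPL25 encodes uL23, which sits at the exit of the peptide tunnel where nascent-chain factors dock. Its values were 1760.4 and 2153 CPM in [PSI+] and 2902 and 2934 CPM in [psi-], a log2 fold change of -0.58 ± 0.15 (SE; edgeR adjusted p = 0.0359).

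Of the genes that rose, 2 belong to the small subunit. RPS3 encodes uS3, which lies at the mRNA entry channel. It stood at 6039 and 6957 CPM in [PSI+] and at 3999 and 4136 CPM in [psi-]. All [PSI+] values were above all [psi-] values, and the log2 fold change was 0.68 ± 0.15 (SE; edgeR adjusted p = 0.0190). RPS13, which encodes uS15, stood at 5454 and 5160 CPM in [PSI+] and at 3018 and 3026 CPM in [psi-]. It had the largest rise of the 19 genes, with a log2 fold change of 0.81 ± 0.13 (SE; edgeR adjusted p = 0.00865). RPL39, a very short protein of the peptide tunnel, was at 8409 and 9449 CPM in [PSI+] and at 5810.2 and 6432 CPM in [psi-]. Its log2 fold change was 0.54 ± 0.15 (SE; edgeR adjusted p = 0.0377).

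The other 13 single-copy genes did not pass the footprint test. RPL3, which encodes a core protein near the peptidyl transferase centre, had a footprint log2 fold change of 0.39, and RPL5, which carries the 5S rRNA, one of 0.25. RPL10, one of the last large-subunit proteins to be added to the ribosome, had -0.30. RPL30, whose product represses splicing of its own transcript, had -0.13, and RPL32 had 0.08. RPP0, the base of the acidic stalk that recruits translational GTPases, had -0.18. Among the small-subunit genes RPS12 had 0.52, RPS20 0.38, RPS15 -0.26, RPS2 -0.28 and RPS31 -0.37. RPL38 was the 1 gene of the 19 whose [PSI+] libraries differed by more than 2-fold: they held 2458 and 6420.1 CPM, beside 6403 and 6682 CPM in [psi-], so its log2 fold change of -0.56 ± 0.43 (SE; edgeR adjusted p = 0.344) rests on replicate 1.

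The 6 calls depend on having both [psi-] libraries, which were far more alike than the [PSI+] ones. All 6 kept their sign in every fit that left out 1 library, and 0 of the 6 calls passed edgeR's adjusted threshold when either [psi-] library was left out. With both kept, DESeq2 did not call RPS3 (adjusted p = 0.0662) or RPL39 (adjusted p = 0.206), and upper-quartile factors lost RPL25 (edgeR adjusted p = 0.0689). A block for replicate number, added to the fit, lost RPL25 and RPL39 (edgeR adjusted p = 0.0523 and 0.0697).

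In mRNA all 19 single-copy genes, and 134 of all 137, were above the all-gene median, against 50% of all genes. The log2 ratio of CPM, [PSI+] over [psi-], is given relative to its median over 5390 genes with 10 or more reads, which was -0.43. There was 1 mRNA library per strain, so these values compare those libraries and carry no test. The median relative log2 ratio of the 19 genes was 2.54, with a range of 0.72 to 3.81, and 17 of them were more than 2-fold above the median of all genes. Over all 137 genes 117 were more than 2-fold above it, against 21.5% of all genes, and 0 were more than 2-fold below it, against 22.3%. For RPS3, 43158 mRNA reads in the [PSI+] library stood against 1875 in the [psi-] library, a ratio of CPM of 10.4 (exact 95% counting interval 9.92 to 10.9). RPL30 had 2149 and 121 reads, a ratio of 8.02 (6.67 to 9.71), and RPL29 had 3101 and 178, a ratio of 7.86 (6.76 to 9.20). The lowest ratios were those of RPP0, with 2365 and 878 reads and a ratio of 1.22 (1.12 to 1.31), and RPL10, with 23103 and 7150 reads and a ratio of 1.46 (1.42 to 1.50). Over the 19 genes Pearson's r of the mRNA ratio with the footprint change was 0.14, and over the 59 pair sums it was 0.41, both as descriptions across genes that share the same libraries.

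**Figure D1:**
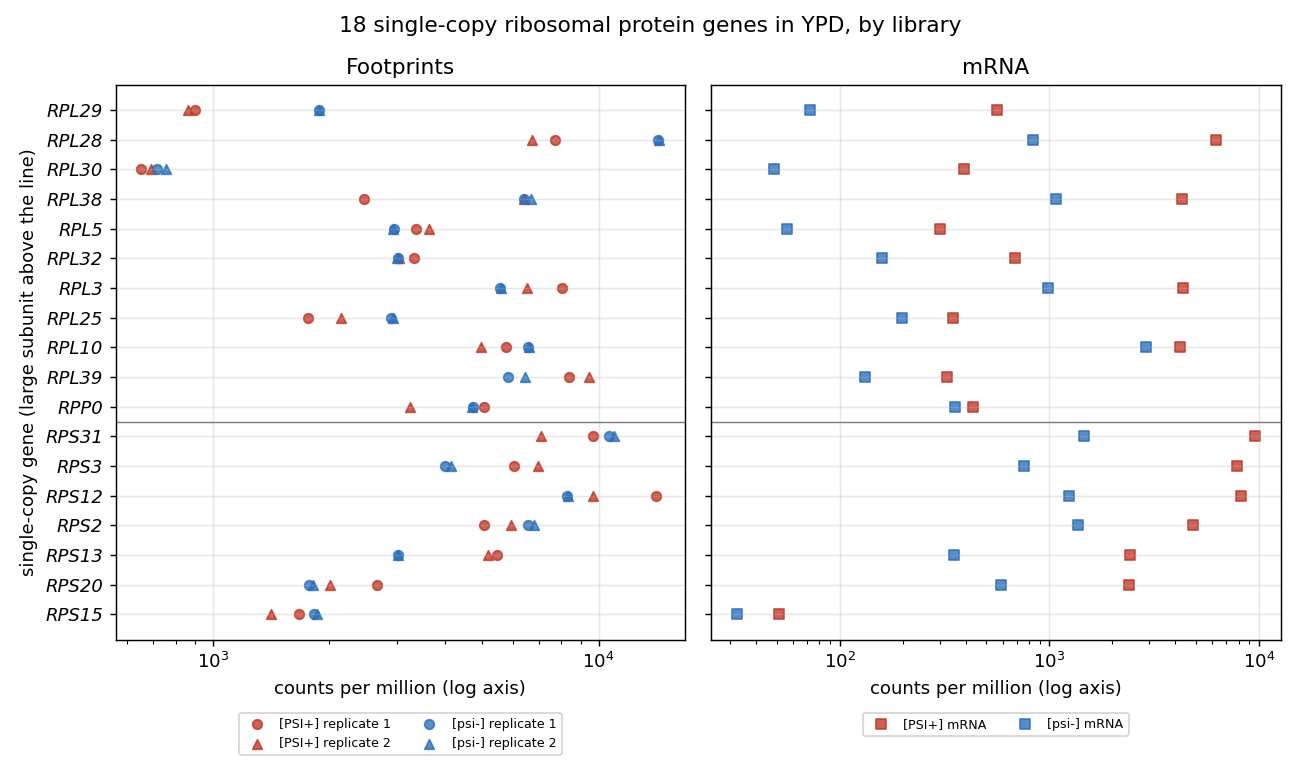
Footprint CPM (left, TMM-scaled) and mRNA CPM (right) of 18 of the 19 single-copy ribosomal protein genes on log axes, 1 point per library. In mRNA every [PSI+] square lies to the right of its [psi-] square, while the footprint points go both ways, with RPL28 and RPL29 lower and RPS13 and RPS3 higher in [PSI+].

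Footprints per mRNA fell for 18 of the 19 single-copy genes. Translational efficiency, the footprint change set against the mRNA change, was tested over all 6 YPD libraries and 5437 genes as the edgeR interaction of strain with kind of library. The 1 mRNA library per strain is assumed there to vary like the footprint libraries. Of all 137 genes 97 fell, against 20.5% of all genes tested, and 0 rose, against 17.9% (38.4% in either direction). The single-copy median was -2.54 on the log2 scale, beside 0.02 for all genes. By subunit, 10 of 11 large and 8 of 8 small single-copy genes fell, with medians of -2.45 and -2.58. RPL29 had the largest fall, -4.49 ± 0.23 (SE; edgeR adjusted p = 0.00304), followed by RPL28 at -4.31 and RPL30 at -3.55. RPS31 had -3.49, RPS3 -3.12, RPL38 -2.98 and RPS12 -2.63. RPL10 (-1.27), RPL39 (-1.17) and RPS15 (-1.34) fell least, and their calls were lost when either [psi-] footprint library was left out. RPL25 (-1.81) lost its call without [psi-] replicate 2. The value of RPP0, -0.89, did not pass the test (edgeR adjusted p = 0.130).

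The same measurement within a strain shows from where the fall started. The log2 ratio of footprints to mRNA compares counts of the same gene and was taken relative to the median of 4557 genes. Whether very short genes are counted alike in both kinds of library was not tested. In [psi-] the single-copy genes had a median of 3.21, so their footprints per mRNA were far above those of the typical gene. In [PSI+] their median was 0.68. Both footprint libraries of a strain were divided by the same mRNA library. The SDs here therefore hold the footprint spread only and leave out the error of the mRNA count. RPS15 was the highest in both strains, with 5.93 ± 0.01 in [psi-] and 4.85 ± 0.18 in [PSI+] (SD of the 2 footprint libraries). RPS3 went from 2.53 ± 0.03 in [psi-] to -0.33 ± 0.14 in [PSI+] (SD of the 2 footprint libraries), below the typical gene. RPL5, at 5.81 and 3.49, and RPL39, at 5.63 and 4.73, remained among the highest in both. Over the 118 duplicated genes the medians were 2.32 in [psi-] and 0.17 in [PSI+].

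**Figure D2:**
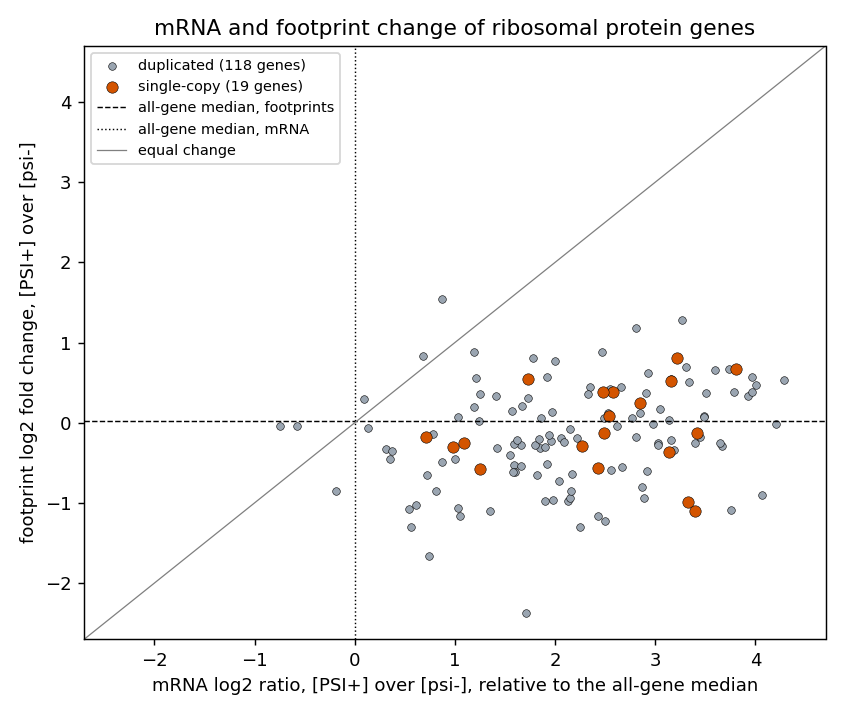
mRNA log2 ratio relative to the all-gene median (x axis, 1 library per strain) and footprint log2 fold change from edgeR (y axis) of 137 ribosomal protein genes, [PSI+] over [psi-], 1 point per gene. Nearly all points lie to the right of the vertical line and below the diagonal of equal change: 134 genes are above the mRNA median and 132 have a translational efficiency below 0.

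The duplicated genes gave no single footprint direction, and the [PSI+] libraries disagreed on them. Taken as reads over the library total, replicate 2 was below replicate 1 by a median log2 of -0.67 over the 118 duplicated genes, and 39 of them differed by more than 2-fold, 37 lower and 2 higher in replicate 2. Over the 19 single-copy genes the median was 0.00, and 1 differed by more than 2-fold. Among all 2875 genes with 100 or more reads in every footprint library, 3.1% did. The [psi-] libraries differed by more than 2-fold at 0 of the 137 genes. RPL41B was the extreme, with 3087 reads in [PSI+] replicate 1 and 244 in replicate 2, and RPS4B was the opposite extreme, with 679 and 4529. A set of 16 other genes with a close copy (histone, enolase, TDH, TEF, EFT, SSA and HSP90 genes), picked after the values were seen, had a median log2 of -0.36. Of these 11 were lower in replicate 2, and ENO2 and HHF2 were more than 2-fold lower. TEF1 (0.68), TDH3 (0.28), TEF2 (0.17), ENO1 (0.09) and EFT1 (0.03) were higher in replicate 2. The median over the 2875 genes was 0.07. How the disagreement arose was not tested.

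**Figure D3:**
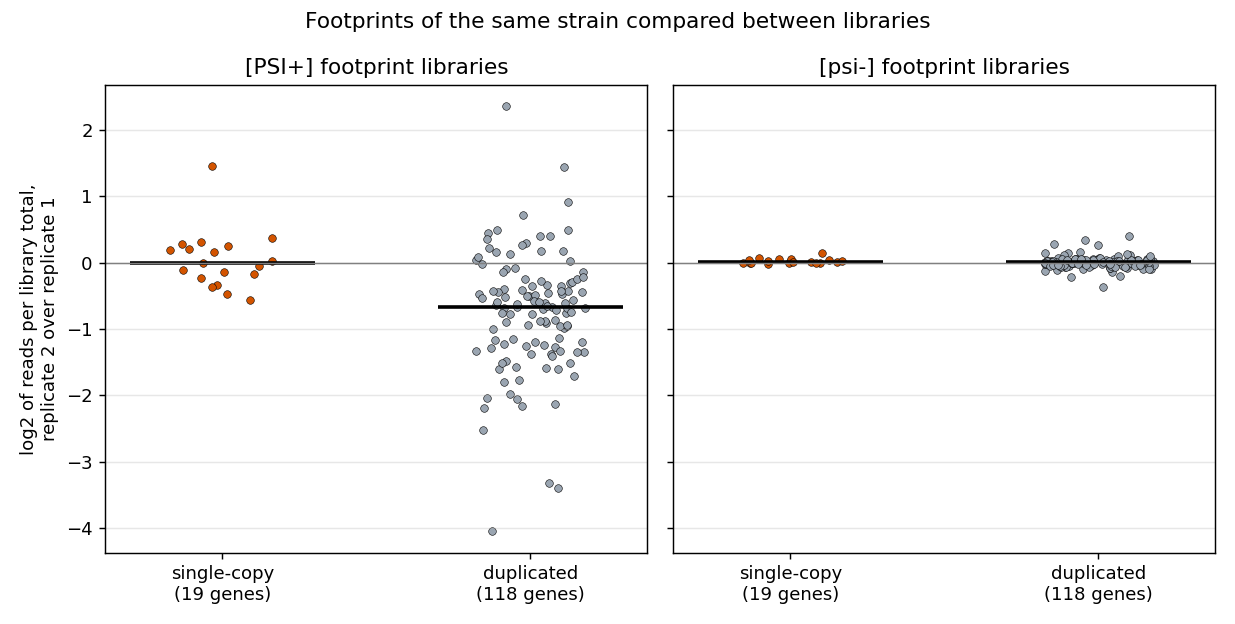
Log2 of reads per library total, replicate 2 over replicate 1, for the 19 single-copy and 118 duplicated ribosomal protein genes in the [PSI+] (left) and [psi-] (right) footprint libraries; 1 point per gene, black bar for the median. In [PSI+] the duplicated genes spread from -4.04 to 2.35 with a median of -0.67, and in [psi-] no gene exceeds 0.39 in size.

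The consequence for the strain comparison can be read from fits with 1 [PSI+] library each, in which the lone library is assumed to vary like the [psi-] pair. With replicate 1 alone the duplicated genes had a median footprint log2 fold change of 0.24 and 78 of 118 were above 0. With replicate 2 alone the median was -0.63 and 26 were above 0. The sign differed between those fits for 56 of the 118 duplicated genes, and for 1 of the 19 single-copy genes, RPP0. Summing the copies did not remove it: 25 of 59 pair sums changed sign, with medians of 0.26 and -0.71. With both libraries in the fit the duplicated median was -0.19, and edgeR called 11 duplicated genes higher and 13 lower. Each of those 24 kept its sign whichever library was left out, but most of the calls did not hold without a [psi-] library.

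Summed over both copies, 8 of 59 pairs were higher in [PSI+] footprints by edgeR's adjusted test and 9 were lower, against 16.7% and 19.5% (36.2% in either direction) of the 5076 features tested in that fit. Of the 35 large-subunit pairs 7 rose and 6 fell, and of the 24 small-subunit pairs 1 rose and 3 fell. The RPL13 pair fell most. Its sum was 2344 and 1396 CPM in [PSI+] and 5384 and 5328 CPM in [psi-], a log2 fold change of -1.52 ± 0.26 (SE; edgeR adjusted p = 0.00767). The RPL40 pair, which encodes the large-subunit ubiquitin fusion, was at 2708 and 5239 CPM in [PSI+] and at 11018 and 10903 CPM in [psi-], a log2 fold change of -1.46 ± 0.31 (SE; edgeR adjusted p = 0.0155). Both pairs had all [PSI+] values below all [psi-] values. RPS29 (-0.99), RPL23 (-1.01) and RPS21 (-0.96) fell as well. These 5 pairs, like all 17 pair sums called, kept their sign with any 1 library left out. The calls of these 5 also held with any 1 library left out, while those of the other pairs did not hold without a [psi-] library. The size depended on the [PSI+] library. Without replicate 1 and without replicate 2 it was -1.60 and -0.59 for RPL23, and -1.38 and -0.65 for RPS21. For RPL13 it was -1.94 and -1.20, for RPL40 -1.07 and -2.02, and for RPS29 -1.12 and -0.88. The call of RPL23 was lost with upper-quartile factors (edgeR adjusted p = 0.0708). The RPS30 pair, at 411 and 102 CPM in [PSI+] and 527 and 522 CPM in [psi-], had -1.04 ± 0.56 and did not pass (SE; edgeR adjusted p = 0.193).

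The pair sum that rose most was RPS18, which encodes a protein of the small-subunit head. It stood at 2420.5 and 3278 CPM in [PSI+] and at 1482 and 1511 CPM in [psi-], a log2 fold change of 0.93 ± 0.18 (SE; edgeR adjusted p = 0.0119). RPL36 followed, with 2371 and 2816 CPM in [PSI+] and 1460.5 and 1465 CPM in [psi-], a log2 fold change of 0.83 ± 0.15 (SE; edgeR adjusted p = 0.00916). Both pairs had all [PSI+] values above all [psi-] values. RPL4 rose by 0.72 and RPL35 by 0.63, while the RPL15 pair, with 6330 and 3187 CPM in [PSI+] and 2957 and 2999 CPM in [psi-], had 0.68 and did not pass (edgeR adjusted p = 0.140). The calls of RPS18, RPL36, RPL4 and RPL35 were lost without either [psi-] library, and those of RPL4 and RPL35 also with DESeq2 (adjusted p = 0.108 and 0.126).

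In translational efficiency 48 of 59 pair sums fell, against 21.7% of the features tested in that fit, and 0 rose, against 18% (39.7% in either direction); the median was -2.41. The lowest were RPL23 at -4.42 ± 0.56, RPL7 at -3.93 ± 0.40, RPS22 at -3.85 ± 0.44, RPL26 at -3.81 ± 0.74 and RPS9 at -3.76 ± 0.36 (SE). RPL7 shows how such a value arose. Its footprint sum was 1657 and 1082 CPM in [PSI+] and 1149 and 1196 CPM in [psi-], with overlapping groups, while its mRNA was at 2802 reads in [PSI+] and 97 in [psi-]. At the other end stood RPS26 at 0.29, RPS24 at -0.17, RPL36 at -0.26, RPL4 at -1.10 and RPL41 at -1.24. Of these RPL4 fell (edgeR adjusted p = 0.0202, a call lost without either [psi-] library) and the other 4 did not pass. RPS26, a protein beside the mRNA exit channel, had mRNA reads of 1073 in the [PSI+] library and 744 in the other, and was the 1 pair sum below the all-gene mRNA median. Its footprints were 3075 and 468 CPM in [PSI+] against 1602 and 1586 CPM in [psi-], so its value rests on replicate 1. For RPS24, a protein of the small-subunit body, the [PSI+] libraries likewise straddled the [psi-] ones, with 1608 and 592 CPM against 1085 and 1078 CPM.

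Among single copies of pairs the mRNA ratios relative to the all-gene median ran from -0.74 for RPS26A to 4.28 for RPS22B. Besides RPS26A, RPL15B and RPS14A were below the median. For RPS22B the [PSI+] library held 2754 reads and the [psi-] library 85, and RPL7A had 2531 and 82. Of the 137 genes 30 had under 100 reads in the [psi-] mRNA library, so several of the highest ratios rest on few reads.

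The division of reads between copies differed between strains for some pairs and between the [PSI+] libraries for more. Of the 56 pairs with 100 or more reads in every library, excluding those below it such as RPL4 and RPL7, 13 had a footprint share of the A copy that differed by more than 10 percentage points between strain means. Between the [PSI+] libraries 20 pairs differed by that much, and between the [psi-] libraries 0. RPL43 had the largest difference between strains. Its A copy held 61.2% and 58.8% of the pair's footprint reads in [PSI+] and 30.4% and 29.8% in [psi-]. In mRNA the order was opposite, with 7.81% in [PSI+] and 27.3% in [psi-]. RPL43A itself rose in footprints by 1.55 on the log2 scale (edgeR adjusted p = 0.00158).

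RPS7 was the pair of these 5 with the A copy lower in [PSI+]: 60.4% and 54.0% against 79.0% and 78.5% in [psi-]. Its mRNA shares were alike, at 96.6% and 96.4%, and far above the footprint shares. RPL16 had 65.0% and 68.3% in [PSI+] and 47.7% and 46.1% in [psi-], and its mRNA share was 10.9% and 15.6%. For RPL37, 22.2% and 44.6% in [PSI+] stood against 13.1% and 13.8% in [psi-], and the [PSI+] libraries were further apart than the nearer one was from [psi-]. RPL20 had 62.4% and 77.5% in [PSI+] and 53.9% and 47.0% in [psi-]. The groups did not overlap for 33 of the 56 pairs, among them these 5, which were picked for their large differences. Footprint levels, a different measure, did not overlap for 36.4% of all genes with [PSI+] higher and 36.4% with it lower. Whether reads shared by both copies set these shares was not tested.

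**Figure D4:**
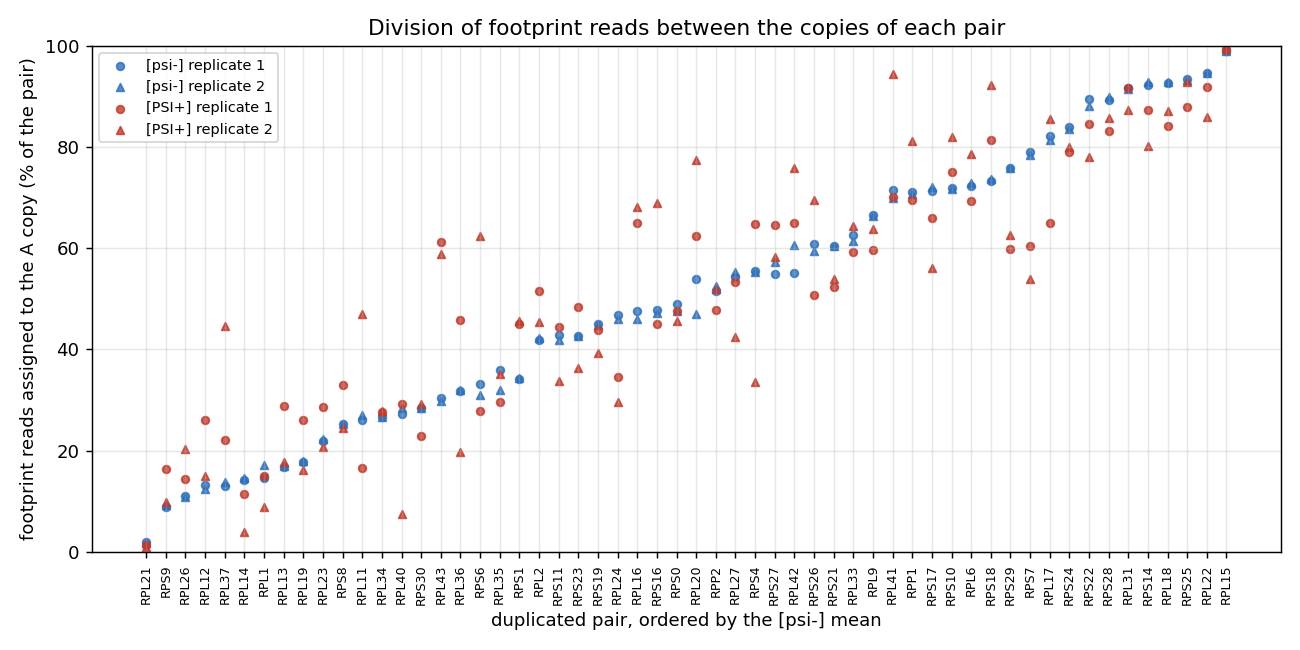
Percentage of a pair's footprint reads assigned to its A copy, for 56 pairs with 100 or more reads in every library, ordered by the [psi-] mean; 1 point per library. The [psi-] points of each pair nearly coincide, with a median difference of 0.492 percentage points, while the [PSI+] points differ by a median of 6.53 points.

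RPL41A and RPL41B encode the shortest ribosomal protein and stand apart in mRNA. RPL41B alone took 31.2% of all ribosomal protein mRNA reads in [psi-] (43218 reads) and 12.2% in [PSI+] (116471 reads), but 0.0389% to 0.527% in the footprint libraries. Without RPL41B the ribosomal protein share of mRNA reads was 15.2% in [PSI+] and 3.85% in [psi-]. RPL41A had 22099 and 4256 mRNA reads, and footprint levels of 2869.6 and 1189.5 CPM in [PSI+] and 2518 and 2391 CPM in [psi-], with overlapping groups. Neither copy passed the footprint test, at -0.27 and -0.65.

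The 5 stalk genes RPP0, RPP1A, RPP1B, RPP2A and RPP2B form the flexible arm of the large subunit that recruits elongation factors. In footprints 0 of 5 were called by edgeR, beside 34.6% of all genes tested, with a median log2 fold change of -0.18. In mRNA their median relative log2 ratio was 1.24, beside 2.16 over all 137 genes, and in translational efficiency 2 of 5 fell, beside 20.5% of all genes, with a median of -1.21. With 5 genes these counts are not set apart from the background.

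Overexpression of SUP35-Cter in YNB left most ribosomal protein genes uncalled. For YNB only condition means and DESeq p-values are at hand, both from the authors' deposited table, so no value per library can be given. SUP35 itself was higher with SUP35-Cter by 1.72 on the log2 scale (authors' adjusted p = 0.00529), with reads of the resident and the overexpressed gene not told apart. By that file's adjusted p 1 of 137 genes was under 0.05, against 1.32% of 6190 features, and at an unadjusted p under 0.05 there were 9, against 7.59%. The called gene was RPL35A, which encodes a protein beside the peptide tunnel exit, with an authors' mean of 3287 in [PSI+] and 1340 with SUP35-Cter, a log2 ratio of -1.29 (authors' adjusted p = 0.000133). Its copy RPL35B had a log2 ratio of -0.57 and an authors' adjusted p of 0.449. In the YPD comparison RPL35A rose in [PSI+] footprints by 0.54 ± 0.12 (SE; edgeR adjusted p = 0.0205), and RPL35B by 0.66 ± 0.17 (SE; edgeR adjusted p = 0.0326). Both calls were lost with DESeq2 (adjusted p = 0.308 and 0.143) and without either [psi-] library (edgeR adjusted p from 0.181 to 0.303).

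Most YNB means were slightly lower with SUP35-Cter. Of the 137 genes 38 had a ratio above 1, against 47.8% of all features with a mean of 10 or more. The single-copy median log2 ratio was -0.10 and the duplicated one -0.22, beside -0.02 for all. RPL10 had the lowest single-copy value, with an authors' mean of 121056 in [PSI+] and 84882 with SUP35-Cter, and RPS31 the highest, with 9515 and 13880.2. Neither was called by the authors.

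The makeup of the ribosomal protein signal differed between the experiments. Ribosomal protein genes made up 2.83% of the summed authors' means of [PSI+] cells in YNB, against 23.5% and 19.2% of [PSI+] footprint reads in YPD. Among the single-copy genes RPL10 held 33.1% of their sum in YNB and 5.99% and 5.46% in the YPD [PSI+] footprint libraries, while RPS31 held 2.60% against 10.1% and 7.85%. Set against the single-copy sum, 4 pair sums were more than 4-fold higher in YNB and 2 more than 4-fold lower. The RPL4 pair was the extreme, at 0.0869% and 0.0971% of the single-copy sum in YPD and 1.99% in YNB. Medium, genome build and read mapping differed between the experiments and cannot be told apart.

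The transcription regulators of these genes did not move as one. Of 7 (RAP1, FHL1, IFH1, SFP1, HMO1, CRF1 and SCH9) 2 rose in [PSI+] footprints by edgeR, RAP1 by 0.53 and FHL1 by 0.70, and 0 fell, beside 15.7% and 18.9% of all genes tested. Their mRNA median relative to all genes was 0.42, but the genes were split. RAP1 (2.27 on the log2 scale) was more than 2-fold above the all-gene median, beside 21.5% of all genes. CRF1 (-3.03), SCH9 (-1.75) and SFP1 (-1.43) were more than 2-fold below it, beside 22.3%. Translational efficiency rose for SFP1 (1.91) and SCH9 (1.47) and fell for RAP1 (-1.73). Neither SFP1 (0.47) nor SCH9 (-0.30) passed the footprint test. Their mRNA read numbers, [PSI+] library first, were 59 against 98 for SFP1 and 82 against 170 for SCH9. The dedicated chaperones, which hold single ribosomal proteins soluble until assembly, had more mRNA in the [PSI+] library, as most ribosomal protein genes did. All 10 (RRB1, ACL4, SYO1, SQT1, YAR1, TSR2, TSR4, BCP1, FAP7 and LTV1) were more than 2-fold above the all-gene mRNA median, beside 21.5% of all genes. Their translational efficiency fell in 10 of 10, beside 20.5% of all genes, with a median of -1.91. In footprints 3 of the 10 rose, ACL4 (0.54), YAR1 (0.77) and TSR4 (0.53), and 1 fell, beside 15.7% and 18.9% of all genes tested. The gene that fell was FAP7, which acts with Rps14, from 223 and 229 CPM in [psi-] to 85.7 and 64.6 CPM in [PSI+]. Of the ribosome-bound proteins, ASC1 fell in translational efficiency (-2.48), and STM1 (-0.61) did not pass. Calls for the regulators, chaperones and ribosome-bound proteins were not repeated with a library left out.

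In the authors' deposited table of YPD footprint differences, which holds genes with an adjusted p under 0.1, 49 of the 137 genes are listed, against 27.1% of the 6608 features. Of those 49, 8 are higher in [PSI+], against 7.11% of all features, and 41 lower, against 20%. The authors' log2 folds are shifted from the edgeR ones, with -1.15 against -0.99 for RPL28 and 1.38 against 1.55 for RPL43A. Counts by direction are therefore not on the same scale as the edgeR counts above. An adjusted p under 0.05 stands in the authors' deposited table for 39 of the genes, against 22.7% of all features.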

How the data were processed

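Members and lists were chosen with earlier results of these data known. For YPD the authors deposited counts per gene (HTSeq 0.5.3p3, Bowtie 0.12.7, build sacCer2, per the submitters' processing notes). The smallest deposited count is 1. This was taken to mean that 1 had been added to each count, which was not tested; read numbers in the text have 1 subtracted per column, and the tests used the deposited counts. How reads with several matches, or strand, were handled is not stated; copies, overlapping and antisense genes are therefore uncertain. The 4 [PSI+] footprint columns were judged from counting noise to be 2 runs of each of 2 libraries (chi-square per degree of freedom 1.01 and 0.997 within, 19.4 or more between) and were summed. The [psi-] columns differed slightly more than counting noise (1.27) and were kept as 2 libraries. The deposited description calls these libraries biological replicates; nothing gives separate cultures, so p-values measure the spread between these samples. For YNB (cutadapt 1.2.1, Bowtie2, build sacCer3, per the same notes) the authors deposited condition means and DESeq 1.6.1 p-values, and planned per-library tests could not be run. The authors' deposited YPD table gives log2 folds and p-values.

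The count test was edgeR 4.0.16 under R 4.3.3 (TMM, filterByExpr with a minimum count of 10, quasi-likelihood test, Benjamini-Hochberg over all genes, threshold 0.05), fitted on the whole table and again with pairs summed. The fits were run on simulated data with the same spread in every library. That does not check them for the unequal spread of these libraries. mRNA ratios used a pseudocount of 0.5. The limit behind a count of 0 is 3 reads, which is 0.546 to 1.21 CPM. RefSeq R64 names matched 5908 of 6608 features. Coordinates, sequences and levels per codon are not given here, and 1 single-copy gene is counted but not reported by itself. Named genes were every other single-copy gene, the 5 highest and 5 lowest pair sums in footprints and in translational efficiency, the 5 largest differences of A share, members called in YNB, the shortest proteins, SUP35 and 3 related lists; extremes, members below the mRNA median and the called copies and pairs named beyond these were singled out after their values were seen. Of the columns with values per sample, 0 were without a sample. Other normalizations, filters, DESeq2 1.42.0 and leaving out libraries were alternatives.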

Additional observations from a re-analysis of the deposited data

How the results depend on the processing

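Counts of 14 genes higher and 16 lower in [PSI+] footprints moved most with the libraries used. Leaving out 1 library in turn gave 1 to 75 higher and 3 to 92 lower, 0 to 19 single-copy genes called (6 with all) and 6 to 55 pair sums called (17 with all). With the [psi-] pair summed as 1 library the values were 1, 3, 0 and 6. Upper-quartile factors gave 23 higher and moved the all-gene median to 0.17; no filter on low counts gave 7, and DESeq2 gave 6 higher and 26 lower. Replicate numbers are only names (same-numbered deviations correlated at 0.00536 over 5135 genes). The replicate block gave 14 higher (16.4% of all genes) and 28 lower (19.9%). It gave 29 pair sums called, for which the share over all features is not given.

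The single-copy footprint median of -0.13 was 0.016 with upper-quartile factors, -0.30 without the filter, -0.31 with DESeq2 and -0.18 to -0.074 with 1 library left out. The fall of translational efficiency kept its direction, but every alternative used the same 1 mRNA library per strain. They therefore do not check the mRNA change, whose median over the 137 genes was 2.16, beside -0.18 for footprints. With all footprint libraries kept apart, 89 to 108 genes were lower, against 15.7% to 21.9% of all genes, and 0 or 1 higher. The single-copy median was -2.43 with RLE factors, -2.27 with upper-quartile factors and -2.60 with TMM without ribosomal protein genes. It was -2.73 without the filter and -2.56 to -2.40 with 1 library left out. The single-copy mRNA median was 2.11 when not set relative to all genes, 2.57 relative to other genes and 2.45 with a minimum of 100 reads. In YNB 2 genes had an authors' adjusted p under 0.1 and 9 an unadjusted p under 0.05, and the single-copy median relative to all genes was -0.076.

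Signs reversed with 1 [PSI+] library left out. Without replicate 1 and without replicate 2 the footprint change was -0.54 and 0.12 for RPP0, -1.47 and 0.25 for the RPL41 pair, -0.12 and 0.49 for RPL7, -0.55 and 0.19 for RPS22, -0.87 and 0.57 for RPS24, and -1.77 and 0.94 for RPS26. The translational efficiency change was -1.01 and 0.38 for RPS24 and -1.58 and 1.09 for RPS26. The cause was not tested. Levels per codon could not be computed without coding lengths. With 1 mRNA library per strain, mRNA values have no replicate check.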
